A study of Homo sapiens with 29 samples.

Results

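Gene expression in ZNF148 knockdown myoblasts was compared between the 48 h and the 96 h time points in differentiation media (DIFF media), using 3 arrays for each time, which are 6 of the 29 arrays of the series. LHCN-M2 is a line of human myoblasts that was immortalized with telomerase and CDK4 and grown from a selected clone, so all values describe the muscle precursors of a single donor that carry both transgenes. The cells of both groups were transfected with 20 nM siZNF148, a pool of several siRNAs against the zinc finger transcription factor ZNF148, and were kept confluent in DIFF media, which is poor in growth factors and contains insulin and apo-transferrin. They are called siZNF148 48 h and siZNF148 96 h here. The labels count the hours from the siRNA treatment, whereas the methods place the change of media before the hours begin, so the time spent in DIFF media is not settled. Cells that received 20 nM nontargeting siRNA (siControl) in DIFF media and siZNF148 cells in growth media each also had 3 arrays at 48 h and 3 at 96 h. They were used to test whether the change over time differed, and they share the estimate of the spread between arrays. The labels call the arrays of a group biological replicates without saying whether they came from separate cultures. The P values measure the spread within groups over the 18 arrays of these 6 groups, which may be technical.

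Differentiating myoblasts leave the cell cycle, fuse into multinucleated myotubes and fill them with the contractile proteins of the sarcomere. Cells that sense viral or other foreign RNA, and cells reached by secreted interferon, switch on a shared set of antiviral genes through a factor complex that includes STAT2 and IRF9 and binds the interferon-stimulated response element (ISRE) in their promoters. Genes of mitosis carry a different pair of promoter elements, the CCAAT box and the cell cycle homology region (CHR). Through the CHR they are repressed when cells stop dividing.

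Promoters of interferon-stimulated and of mitotic genes are shown first, since later paragraphs return to their elements. Each run covers 250 bases before and 50 bases from the annotated start of the gene, from RefSeq on build GRCh38.p14, read 5′ to 3′ on the strand of the gene. In the first 4 promoters the capitals mark every match to the ISRE core, GAAA followed after any 2 bases by GAAA again, on either strand, and matches may overlap.
MX1, chr21:41420308-41420607, plus strand: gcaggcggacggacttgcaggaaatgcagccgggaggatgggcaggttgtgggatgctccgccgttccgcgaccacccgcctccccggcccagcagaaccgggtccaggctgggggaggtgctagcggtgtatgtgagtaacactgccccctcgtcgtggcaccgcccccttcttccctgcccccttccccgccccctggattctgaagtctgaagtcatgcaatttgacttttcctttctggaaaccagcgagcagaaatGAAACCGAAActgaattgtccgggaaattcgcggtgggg
IFI6, chr1:27672143-27672442, minus strand: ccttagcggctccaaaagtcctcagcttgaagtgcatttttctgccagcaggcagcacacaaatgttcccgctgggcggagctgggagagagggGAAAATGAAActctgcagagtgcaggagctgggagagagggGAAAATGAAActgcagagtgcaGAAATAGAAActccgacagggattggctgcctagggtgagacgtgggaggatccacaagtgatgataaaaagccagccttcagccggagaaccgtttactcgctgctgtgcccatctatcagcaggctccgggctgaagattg
BST2, chr19:17405581-17405880, minus strand: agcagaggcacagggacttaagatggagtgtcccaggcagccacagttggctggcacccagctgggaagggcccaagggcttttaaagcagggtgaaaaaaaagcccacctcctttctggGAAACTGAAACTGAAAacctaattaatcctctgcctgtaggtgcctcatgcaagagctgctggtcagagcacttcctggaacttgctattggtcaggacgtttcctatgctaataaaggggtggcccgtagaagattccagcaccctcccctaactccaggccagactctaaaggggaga
ISG15, chr1:1013247-1013546, plus strand: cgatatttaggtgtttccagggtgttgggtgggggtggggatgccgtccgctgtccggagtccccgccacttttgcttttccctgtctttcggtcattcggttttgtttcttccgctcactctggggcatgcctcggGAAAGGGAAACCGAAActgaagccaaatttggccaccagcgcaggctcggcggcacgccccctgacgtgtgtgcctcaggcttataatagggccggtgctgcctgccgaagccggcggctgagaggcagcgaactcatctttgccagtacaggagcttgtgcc

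Counted from the annotated start, the match of MX1 began at base 12, those of IFI6 at -156, -115 and -93, and the matches formed an overlapping pair in BST2 and in ISG15. A match was present in 19 of the 28 interferon-stimulated genes that were tested and had a promoter in the table (67.9%), against 3.04% of the 13129 tested genes with a promoter and 3.65% of all 27305 promoters. In the next 3 promoters, of mitotic genes, the capitals mark the CHR core TTTGAA and the CCAAT box CCAAT on either strand.
SPC25, chr2:168890381-168890680, minus strand: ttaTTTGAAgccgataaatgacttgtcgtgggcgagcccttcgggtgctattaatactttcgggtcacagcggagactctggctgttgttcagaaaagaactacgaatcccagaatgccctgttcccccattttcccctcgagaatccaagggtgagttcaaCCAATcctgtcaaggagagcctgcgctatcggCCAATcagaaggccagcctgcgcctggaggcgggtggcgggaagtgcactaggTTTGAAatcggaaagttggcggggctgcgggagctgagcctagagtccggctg
TOP2A, chr17:40417847-40418146, minus strand: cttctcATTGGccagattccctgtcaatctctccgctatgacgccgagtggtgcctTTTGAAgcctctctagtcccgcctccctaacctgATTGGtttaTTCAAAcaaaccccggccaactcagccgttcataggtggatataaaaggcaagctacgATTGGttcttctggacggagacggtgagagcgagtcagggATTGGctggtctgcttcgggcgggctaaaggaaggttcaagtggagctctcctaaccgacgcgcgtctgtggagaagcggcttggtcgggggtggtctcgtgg
CDK1, chr10:60778081-60778380, plus strand: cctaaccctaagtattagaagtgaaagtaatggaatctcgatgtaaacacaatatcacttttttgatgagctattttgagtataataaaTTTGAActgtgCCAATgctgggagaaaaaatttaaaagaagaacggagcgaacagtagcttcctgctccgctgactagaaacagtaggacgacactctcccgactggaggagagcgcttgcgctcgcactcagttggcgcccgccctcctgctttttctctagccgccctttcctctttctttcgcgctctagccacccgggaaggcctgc

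SPC25 held 2 CHR cores and 2 CCAAT boxes, TOP2A held 2 and 4, and CDK1 held 1 of each. Both elements were found in 25 of 48 mitotic promoters (52.1%) and in 4.46% of the promoters of tested genes. TTTGAA, with or without CCAAT, was found in 30 of 48 against 10.9%, and CCAAT, with or without TTTGAA, in 36 of 48 against 36.3%. A match describes the letters only and does not show that a factor binds there.

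The share of probes well above background was 46.3% to 56.5% on the arrays of siZNF148 48 h and 45.4% to 49.9% on those of siZNF148 96 h, within the range of all 29 arrays (41.5% to 56.5%). Log2 signals correlated at 0.989 to 0.994 between arrays of siZNF148 48 h, at 0.983 to 0.988 between arrays of siZNF148 96 h and at 0.967 to 0.973 across the 2 times. The 17037 genes with a tested probe are the points of these correlations, and genes are not independent replicates. Each of 3 slides held 1 array of each time, so that a difference within a slide could be read for every gene. The number of arrays limits the precision.

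Expression at 96 h was compared with that at 48 h to see what still moved in knockdown cells once they were in DIFF media. A gene, given by its brightest tested probe, was counted as changed when limma gave a Benjamini-Hochberg adjusted P below 0.05 together with a difference above 2-fold. Of 17037 genes, 1514 changed (8.89%), 807 of them higher at 96 h (4.74%) and 707 lower (4.15%), and the median change of all genes was -0.04 on the log2 scale. Every 96 h array lay above every 48 h array for 24.3% of genes and below for 30.8%. The largest rise belonged to the smooth muscle actin gene ACTG2, and the antiviral genes MX1, MX2 and OAS1 were among the next. In the plot of change against signal the interferon-stimulated genes formed a band well above the other genes, and the mitotic genes lay mostly below 0.

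**Figure D1:**
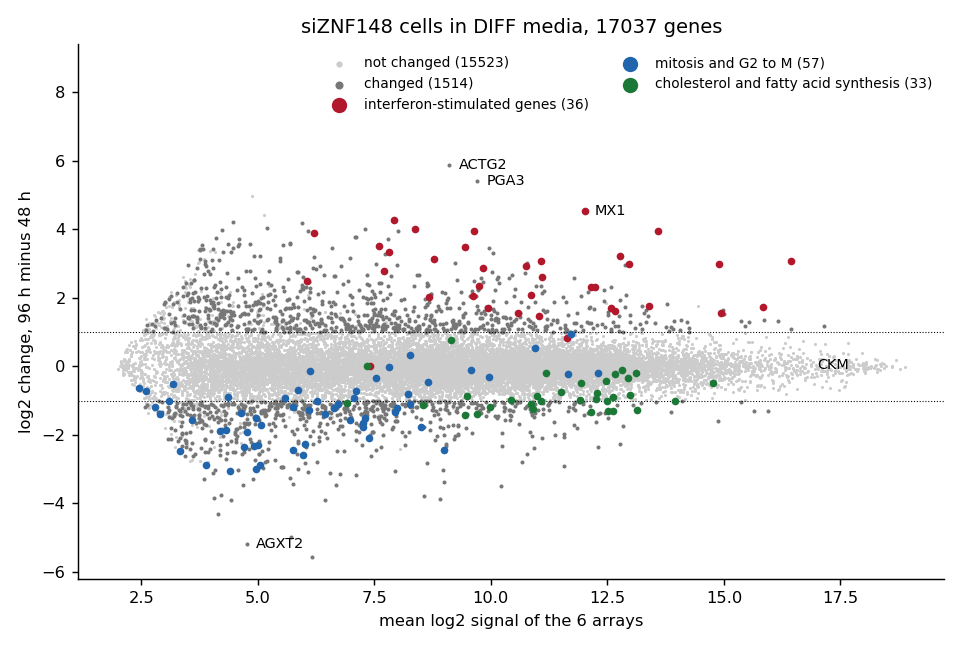
Change from 48 to 96 h of 17037 genes in siZNF148 cells in DIFF media (log2, vertical axis) against the mean log2 signal of the 6 arrays (horizontal axis), with dotted lines at a 2-fold change. Of the coloured lists, 34 of 36 interferon-stimulated genes changed upward, and 37 of 57 mitotic and 14 of 33 cholesterol and fatty acid genes changed downward. The fitted change of AGXT2, which was below background at 96 h, overstates the bound given in the text.

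The targeted transcript was read first. ZNF148 had log2 signals of 7.02, 6.95 and 7.22 at siZNF148 48 h and of 7.05, 6.87 and 7.19 at 96 h. These overlapped and differed by -0.03 ± 0.12 (SE, limma adjusted P = 0.876), so no recovery of the transcript was detected between the times. The siControl means in DIFF media were 9.41 at 48 h and 9.77 at 96 h, above every siZNF148 array.

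Muscle genes, which were high in knockdown cells at 48 h, mostly did not change further by 96 h. Muscle creatine kinase CKM stood at 17.90, 17.86 and 17.85 at siZNF148 48 h and at 17.90, 17.93 and 17.90 at 96 h (difference 0.04 ± 0.30, adjusted P = 0.944). Its SE, like the others, came from the spread of all 18 arrays and was wider than these 6 arrays alone would give. MYOD1, the master regulator of the lineage, differed by -0.11 ± 0.06 (adjusted P = 0.131), MYOG, which drives terminal differentiation, by 0.33 ± 0.30 (adjusted P = 0.453), and MEF2C, a partner of both, by -0.15 ± 0.15 (adjusted P = 0.508). Neither MYF6 (-0.03) nor VIM (-0.31), SP1 (-0.30) and SP3 (0.09) passed the fold threshold. MYH2, the fast IIa myosin heavy chain, stood 0.75 ± 0.21 higher (adjusted P = 0.013), under the fold threshold. Of 25 myogenic transcription factors none rose and 2 fell by limma with the same adjustment, against 4.74% and 4.15% of all genes. MYF5, which acts in early myoblasts, went from 11.79, 11.87 and 11.98 to 10.69, 10.30 and 10.82 and so fell by 1.28 on the log2 scale (adjusted P = 0.00216), with no overlap. It also fell in siControl cells (-2.07). SRF, the factor that activates actin and other contractile genes, fell by 1.16 (adjusted P = 8.05e-06), but its fall was 0.97 when siZNF148 96 h replicate 2 was left out, which is under the fold threshold.

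The sarcomere lists were nearly flat in knockdown cells over this interval. Of 23 thin filament genes 3 rose and 1 fell, with a median change of 0.12, while in siControl cells 17 rose and 1 fell (median 2.43). Of all genes 4.74% rose and 4.15% fell in siZNF148 cells, and 6.59% and 4.34% in siControl cells. The difference between the 2 changes was tested in the same fit, and 17 of the 23 rose less, or fell more, in siZNF148 cells, against 10.5% of all genes. In siZNF148 cells its median log2 signal had a mean of 14.99 ± 0.05 (SD, n = 3) at 48 h and 15.01 ± 0.08 at 96 h, whereas siControl cells had 10.43 ± 0.30 and 13.25 ± 0.14. The siControl cells thus stayed below the knockdown cells at both times. Of 35 genes of titin, the Z-disc and the M-band, 1 rose and 1 fell in siZNF148 cells (siControl 16 and 3), and of 12 developmental muscle isoforms none changed (siControl 10 higher). MYH3, the embryonic myosin heavy chain, and TTN, the giant titin, chosen after their values were seen, changed by -0.10 ± 0.34 and -0.01 ± 0.16.

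**Figure D2:**
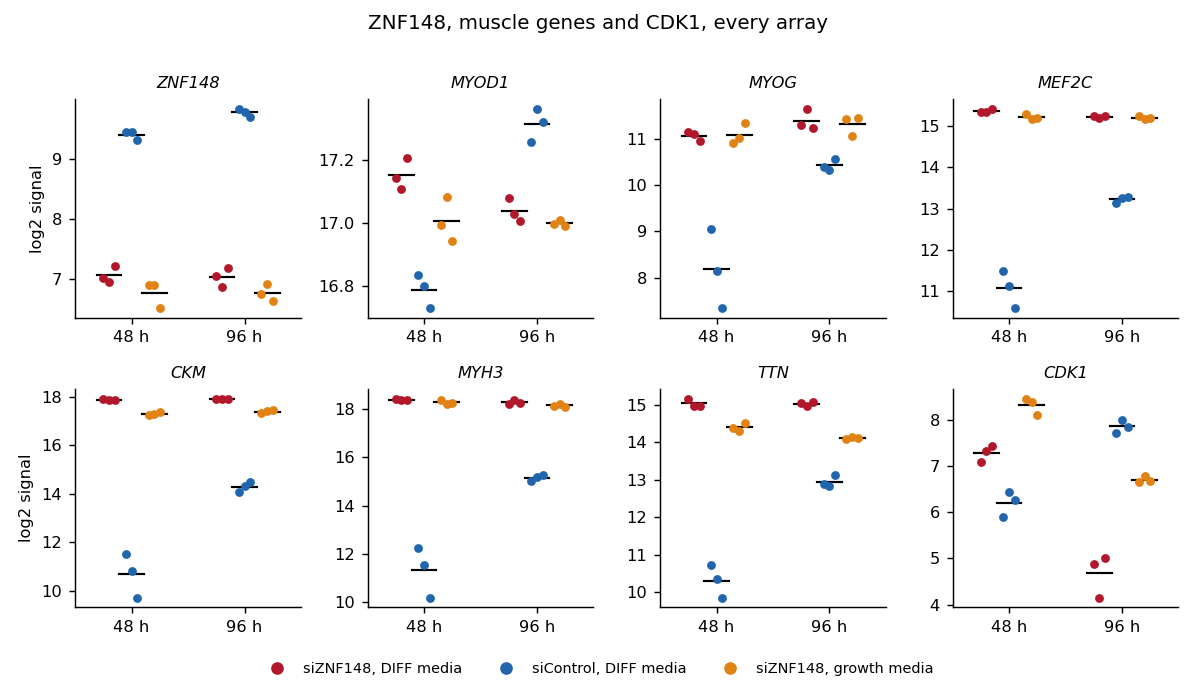
Log2 signal of ZNF148, of 6 muscle genes and of the mitotic kinase gene CDK1 on every array at 48 and 96 h, with each point an array and each bar the mean of 3 arrays; vertical axes differ and do not start at 0. The siZNF148 arrays in DIFF media keep their level of CKM (17.85 to 17.93) while CDK1 falls from between 7.08 and 7.43 to between 4.15 and 5.02.

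A few adult and cardiac type isoforms were higher at 96 h, and more such isoforms rose in siControl cells. There 10 of 15 myosin genes (median 1.76) and 17 of 21 adult isoforms (median 2.25) rose, against 6.59% of all genes. By the test of the difference 10 and 14 of them had a more negative change in siZNF148 cells, against 10.5% of all genes, and 1 of each list a more positive one. MYH7, the slow myosin heavy chain, went from 16.55, 16.73 and 16.43 to 17.77, 17.74 and 17.71 (1.17 ± 0.32, limma adjusted P = 0.0116). The fast troponin I gene TNNI2 rose by 1.31 ± 0.34 (adjusted P = 0.008), the light chain gene MYL2 by 1.40 ± 0.27 (adjusted P = 0.000913) and NRAP, a scaffold of growing myofibrils, by 2.76 ± 0.44 (adjusted P = 0.000248). In these genes every 96 h array lay above every 48 h array. MYH6, the close relative of MYH7, rose by 1.69 ± 0.39, and their probes may share signal. In all, 4 of 15 myosin genes rose, against 4.74% of all genes, the 4th being MYL3, whose call was lost when any of 5 of the 6 arrays was left out (adjusted P from 0.0559 to 0.0991).  Of 18 genes of the dystrophin complex, which ties the cytoskeleton to the matrix, 3 rose, against the same share of all genes, among them DMD, the dystrophin gene (1.65 ± 0.14). TMOD4, which caps thin filaments, fell by 1.24 ± 0.18 (adjusted P = 0.000114), and CHRND, a subunit of the muscle acetylcholine receptor, fell by 1.06 ± 0.13 (adjusted P = 3.18e-05) although it rose in siControl cells (2.44). TRDN, which encodes triadin of the calcium release unit, rose by 1.25 ± 0.22. In a fit of all 29 arrays MYH7, MYH6, MYL2, MYL3, TNNI2, TRDN and CHRND were not called, and neither were CDKN1C and DLK1, which are described further on. A further fit, which was not planned at the start, left out siControl 48 h replicate 1 in growth media. That array was known from earlier results to stand apart in muscle genes, which was not tested here. Of the genes just named, MYH7 and MYL3 alone stayed uncalled in that fit. MYL2 was also not called with the per-gene test of the study's methods after adjustment. The calls of TMOD4 and CHRND were also lost with a normexp correction of the background.

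Interferon-stimulated genes made up the most uniform group. Of 36 tested members 34 rose and none fell, against 4.74% of all genes that rose, and the median change of the list was 2.69, against -0.04 for all genes. The change within each slide had a median of 2.53, 2.73 and 2.79. Its median log2 signal was 9.36, 9.90 and 9.46 on the siZNF148 48 h arrays and 11.89, 11.88 and 11.73 on the 96 h arrays. Replicate 2 was the highest of the 48 h arrays, and the 2 times did not overlap. The count was 34 whichever of the 6 arrays was left out. The members that were not called were IRF1 (0.01) and LGALS3BP (0.83).

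Among the antiviral effectors, MX1, a GTPase that traps viral nucleocapsids, had log2 signals of 9.31, 10.36 and 9.62 at 48 h and of 14.24, 14.44 and 14.15 at 96 h. Replicate 2 was the highest at 48 h but lay far below all 96 h arrays, and the rise was 4.51 ± 0.23 or 22.9-fold (limma adjusted P = 7.4e-09). Its paralog MX2 rose by 4.27 ± 0.27 (adjusted P = 6.2e-08). OAS1, which makes the second messenger that activates RNase L, went from 6.07, 6.88 and 6.16 to 10.47, 10.35 and 10.29 (4.00 ± 0.20, adjusted P = 6.35e-09). IFI6, a mitochondrial protein, went from 11.58, 11.84 and 11.42 to 15.54, 15.69 and 15.46 (3.95 ± 0.15, adjusted P = 8.28e-10). BST2, or tetherin, which holds budding virions at the cell surface, went from 7.38, 8.11 and 7.50 to 11.57, 11.70 and 11.57 (3.95 ± 0.21, adjusted P = 1.1e-08). In all 5 genes the 2 times did not overlap. MX1, IFI6 and BST2 hold the ISRE cores shown above, while no match lay in the window of OAS1, whose rise was of similar size.

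Regulators of the same pathway rose too, and these genes were chosen after their values were seen. STAT2 rose by 1.75 ± 0.12 (adjusted P = 1.26e-07) and IRF9 by 2.07 ± 0.13 (adjusted P = 4.3e-08). IRF7, which amplifies interferon production, went from 11.08, 11.33 and 11.12 to 14.39, 14.36 and 14.41 (3.21 ± 0.08, adjusted P = 9.59e-12). The ubiquitin-like modifier ISG15 rose by 3.07 ± 0.16, and USP18, the protease that removes it, by 2.31 ± 0.16. USP18 was the single listed gene that also rose in siControl cells (2.67), and its probe may read the near-identical USP41 as well. The cytosolic RNA sensors IFIH1 and RIGI rose by 2.93 ± 0.13 and 1.71 ± 0.12.

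**Figure D3:**
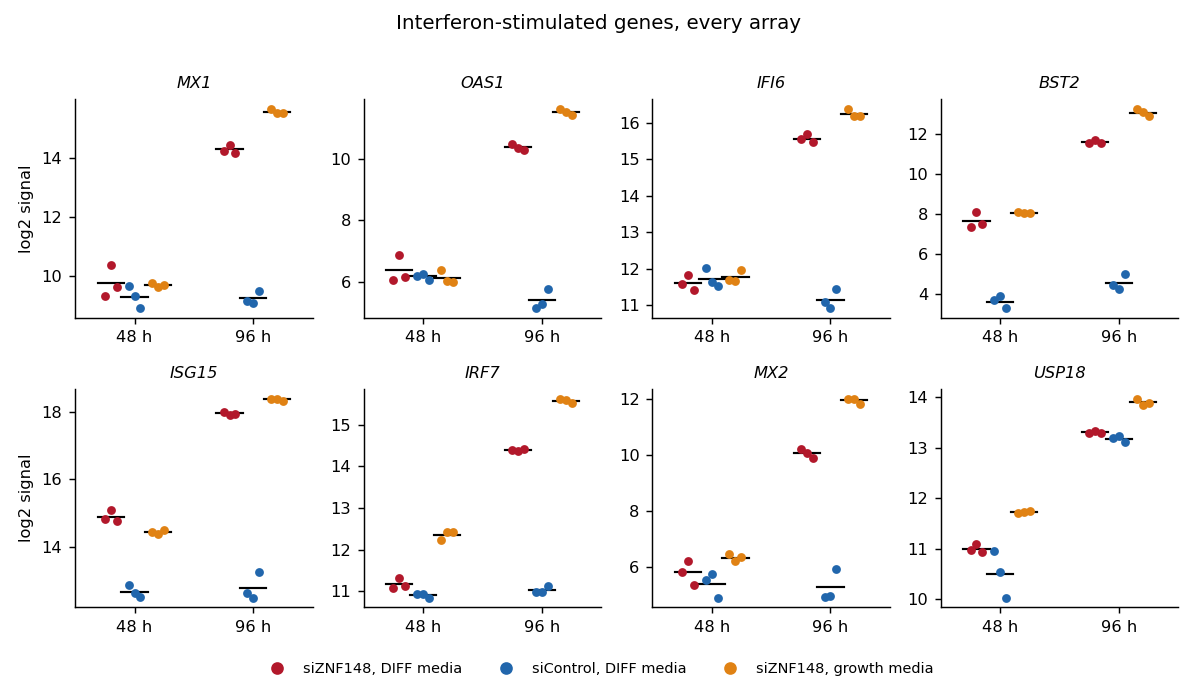
Log2 signal of 8 interferon-stimulated genes on every array at 48 and 96 h, with each point an array and each bar the mean of 3 arrays; vertical axes differ and do not start at 0. In siZNF148 cells all 8 genes are higher at 96 h in both media, whereas in siControl cells USP18 alone of the 8 passed both the test and the fold threshold upward.

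The ligands, receptors and sensors of the pathway were read next. A list of 24 ligands, receptors and sensors, drawn up after values were seen, had 4 members that rose, all of them sensors, and 2 that fell (median 0.27). Of all genes 4.74% rose and 4.15% fell. The sensors DHX58 (2.59 ± 0.10), TLR3 (2.23 ± 0.15) and EIF2AK2 (1.51 ± 0.08) and the nucleic acid sensor ZBP1 (1.93 ± 0.33) rose, although another probe of ZBP1 gave 0.40 and its call was lost with a normexp correction. IFNB1, the gene of interferon beta, was well above background on 1 of the 3 arrays at 48 h and on none at 96 h, with a fitted difference of 0.72 ± 0.55 (adjusted P = 0.358). The receptor chain IFNAR1 was 0.56 ± 0.12 higher and IFNAR2 0.75 ± 0.08 lower (-0.75), both under the fold threshold. IFNLR1, a chain of the interferon lambda receptor, fell by 2.36 (adjusted P = 5.3e-08), but of its other probes 1 gave -2.38 and 1 gave 0.81 (adjusted P = 0.0549).

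The change of the interferon-stimulated genes differed from that of siControl cells in DIFF media, where 1 member rose, against 6.59% of all genes, and 3 fell, against 4.34% (median -0.15). The test of the difference was passed by 34 members, all rising more in siZNF148 cells, against 8.78% of all genes. The difference was 4.57 for MX1 (adjusted P = 1.08e-07) and 4.53 for IFI6 (adjusted P = 4.88e-09). In growth media 35 members rose in siZNF148 cells, against 4.65% of all genes (median 3.54). The median log2 signal of the list started at 9.70 ± 0.04 (SD, n = 3) there and reached 12.78 ± 0.12, against 9.57 ± 0.29 and 11.83 ± 0.09 in DIFF media. The difference between media was tested, and 12 members rose less in DIFF media, against 1.67% of all genes. Among them were MX1 (-1.35, adjusted P = 0.0234), OAS1 (-1.39, adjusted P = 0.01) and CMPK2, a mitochondrial nucleotide kinase (-2.33, adjusted P = 0.000182). No member rose more there.

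**Figure D4:**
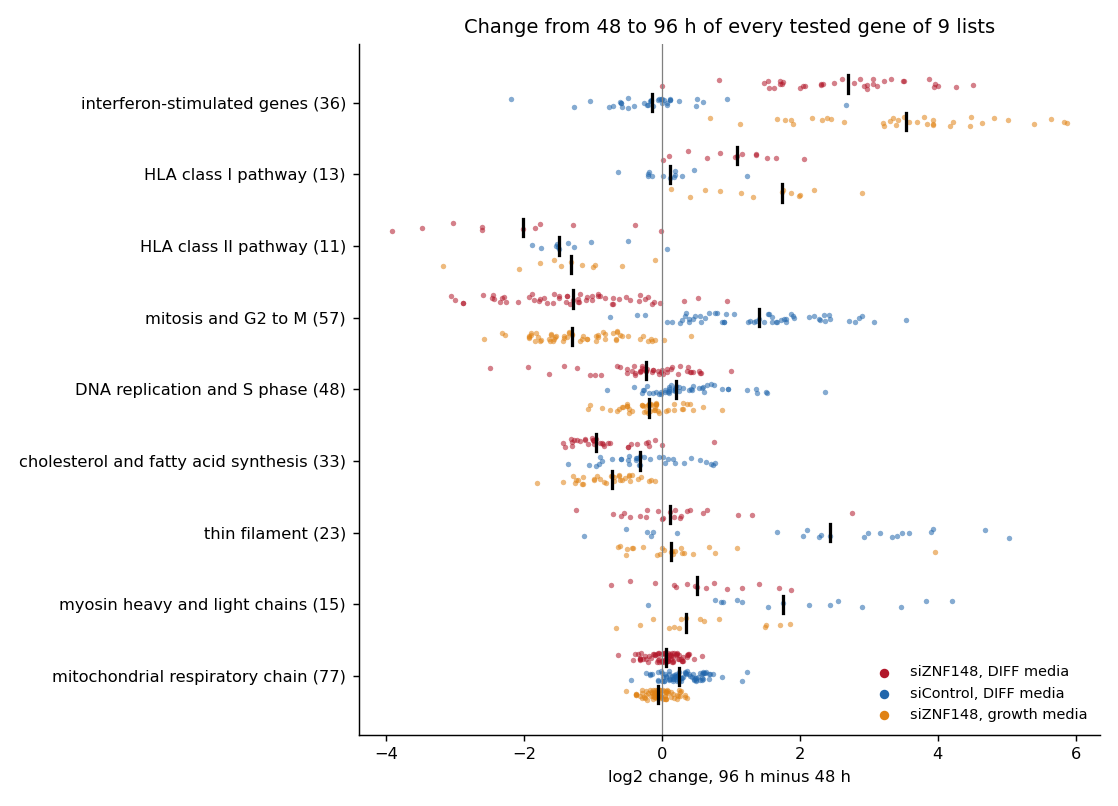
Change from 48 to 96 h (log2, horizontal axis) of every tested gene of 9 lists, with the number of genes in brackets, for siZNF148 cells in DIFF media, siControl cells in DIFF media and siZNF148 cells in growth media; each point is a gene and each bar a median. Interferon-stimulated genes rise in both siZNF148 comparisons (medians 2.69 and 3.54), mitotic genes fall in both (-1.28 and -1.30) and rise in siControl cells (1.41), and thin filament genes rise mainly in siControl cells (2.43). Genes below background are drawn at their fitted change.

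The HLA genes split by class. A list of 24 antigen presentation genes had 8 that rose and 9 that fell, and when it was divided after the values were seen, all 8 lay in the class I pathway, which shows peptides from inside the cell, and all 9 in the class II pathway, which shows peptides taken up from outside. In class I, 8 of 13 genes rose, against 4.74% of all genes (median 1.09). HLA-B went from 12.59, 12.42 and 12.53 to 14.19, 14.28 and 14.00 (1.65 ± 0.09, limma adjusted P = 2.01e-08), and HLA-C rose by 1.53 ± 0.09 (adjusted P = 2.11e-08). The peptide transporter gene TAP1 rose by 2.07 ± 0.09 (adjusted P = 2.57e-09), and the immunoproteasome subunit gene PSMB8 by 1.36 ± 0.08 (adjusted P = 2.27e-08). B2M, the light chain shared by class I molecules, rose by 1.16 ± 0.09 and was the only gene of the housekeeping list that changed. NLRC5, which activates class I genes, rose by 1.36 ± 0.23 on 1 probe and by 0.36 on another. HLA-E (0.02) did not pass the fold threshold. The class I genes resemble each other in sequence, so their probes may share signal. At 96 h the siZNF148 mean of HLA-B, 14.16, was still below the siControl means in DIFF media of 15.38 and 15.19.

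In class II, none of 11 genes rose and 9 fell, against 4.15% of all genes that fell (median -2.01, or -1.64 with 3 genes at the bound set by background). HLA-DRA, the invariant alpha chain of HLA-DR, went from 8.52, 8.12 and 8.53 to 4.64, 4.17 and 4.63 and fell by 3.91 on the log2 scale (adjusted P = 5.36e-09, limma), with 1 of its 96 h arrays well above background. HLA-DPA1, chosen after its values were seen, was well above background on all 6 arrays and fell by 2.01 (adjusted P = 4.28e-08). HLA-DMB, a chaperone of peptide loading, was not well above background at 96 h, and its 48 h mean was at least 3.12-fold higher (adjusted P = 8.06e-06 for the fitted change). CD74, the invariant chain, fell to background on all 96 h arrays, but the bound was only 1.22-fold. HLA-DOA fell by 3.48 (adjusted P = 2.91e-05) with a smaller fall of 0.88 on another probe, and HLA-DQA1 was at least 1.38-fold higher at 48 h on its brightest probe while another gave a change of 1.22 (adjusted P = 0.149). CIITA, the master regulator of class II genes, was near background, with a difference of -0.39 ± 0.71. Class II genes also fell in siControl cells (9 of 11, against 4.34% of all genes, median -1.49). In siZNF148 cells in growth media 7 of 11 fell, against 2.24% (median -1.32). The test against siControl cells was passed by 4 genes that fell more in siZNF148 cells, among them HLA-DRA (-2.15, adjusted P = 1.8e-05), and by 1 in the other direction. The shares of all genes were 10.5% and 8.78%. With a normexp correction CD74, HLA-DMB, HLA-DQA1 and, in class I, NLRC5 were not called. The ISRE core was in 5 of 10 class I promoters and in none of 9 of class II, against 3.04% of those of tested genes. The CHR core together with the CCAAT box, shown above for mitotic genes, was in 4 of 9 class II promoters (44.4%), against 4.46%. It was in none of 10 of class I.

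**Figure D5:**
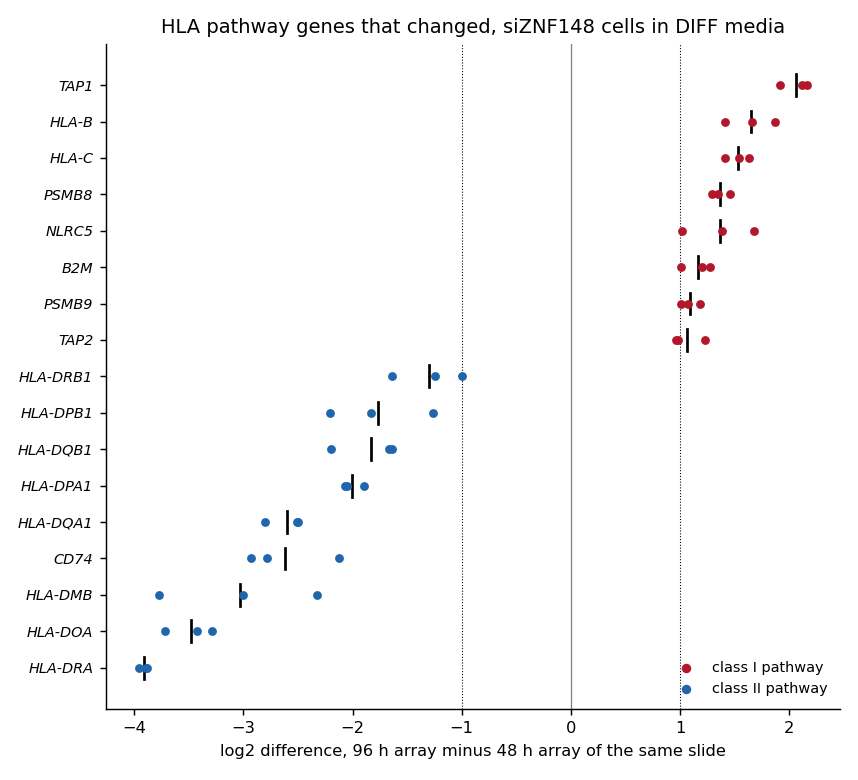
Difference between the 96 h and the 48 h array of the same slide (log2, horizontal axis) for the 8 class I and 9 class II pathway genes that changed in siZNF148 cells in DIFF media; points are the 3 slides, bars the fitted change and dotted lines a 2-fold change. All points of the class I genes lie above 0 and all points of the class II genes below 0, with genes near background drawn at their measured difference.

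Genes of mitosis fell in knockdown cells. Of 57 tested members none rose and 37 fell, against 4.15% of all genes that fell, with a median change of -1.28. Its median log2 signal was 6.85, 6.95 and 7.13 at siZNF148 48 h and 5.68, 5.63 and 5.57 at 96 h, and the slides gave median changes of -1.27, -1.34 and -1.38. The levels were low, and 31 members were well above background on all 6 arrays. Of these 31, 16 fell and none rose (median -1.01). Of all 13962 genes well above background on the 6 arrays, 407 fell and 547 rose. CDK1, the kinase that starts mitosis, went from 7.08, 7.32 and 7.43 to 4.88, 4.15 and 5.02 and fell by 2.59 on the log2 scale (adjusted P = 2.8e-07, limma). Over 24 alternatives of the processing CDK1 stayed called, but its change ranged from -2.76 to -1.26. MKI67, the proliferation marker Ki-67, chosen after its values were seen, fell by 1.28 (adjusted P = 0.000274).

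Several members dropped to background, for which only a bound can be given. The adjusted P beside a bound is that of the fitted change, which uses the values below background. Of 14 members not well above background on any array of 1 of the times, 12 were called, against 296 of 1262 among all tested genes. TOP2A, the topoisomerase that untangles sister chromatids, had 6.17, 6.55 and 6.65 at 48 h and was at least 3.94-fold higher there than at 96 h (limma adjusted P = 5.49e-06). FOXM1, an activator of mitotic genes, was at least 3.84-fold higher at 48 h (adjusted P = 1.87e-06), SPC25, a kinetochore protein, at least 2.79-fold (adjusted P = 8.1e-06) and the chromokinesin gene KIF4A at least 1.83-fold (adjusted P = 7.33e-08). Another probe of KIF4A gave -1.10 (adjusted P = 0.267). With genes at their bound the median of the list was -1.18. The members that were not called included CCNB1 (-0.46), CDC20 (-0.14) and AURKA (0.32). With a normexp background correction, 11 members fell and 1, CDC25B, rose (median -0.53), and FOXM1, SPC25 and KIF4A were not called.

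In siControl cells the list moved the other way, and 33 members rose and none fell, against 6.59% and 4.34% of all genes (median 1.41). The test of the difference was passed by 47 members, all toward lower values in siZNF148 cells, against 10.5% of all genes. The difference was -4.24 for CDK1 (adjusted P = 5.5e-08). In growth media 33 members fell in siZNF148 cells, against 2.24% of all genes (median -1.30), and the test between media called 1 member in each direction. In DIFF media the list median at 48 h averaged 6.97 ± 0.14 (SD, n = 3) in siZNF148 and 6.91 ± 0.08 in siControl cells, while at 96 h it averaged 5.62 ± 0.06 and 8.18 ± 0.06. In bulk RNA, fewer dividing cells and less mitotic RNA in each cell cannot be told apart.

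Of 48 tested genes of DNA replication 1 rose and 6 fell, against 4.74% and 4.15% of all genes (median -0.23). Of the 42 well above background on all 6 arrays, 1 rose and 2 fell (median -0.18), against 547 and 407 of 13962 such genes. The change of 15 of the 48 differed from that of siControl cells, all toward lower values, against 10.5% of all genes. CDT1, which loads the replicative helicase, went from 7.35, 7.13 and 7.79 to 5.57, 5.36 and 5.49 and fell by 1.95 on the log2 scale (adjusted P = 7.55e-07, limma). E2F2, a driver of S phase genes, fell by 1.23 (adjusted P = 2.57e-05), or by less than 2-fold with a normexp correction. RRM2, a subunit of ribonucleotide reductase, and POLE2, of DNA polymerase epsilon, were at least 1.66-fold and 1.68-fold higher at 48 h than at 96 h, where they were not well above background, and both calls were lost with that correction. The helicase subunit MCM2 (0.14) and the clamp PCNA (-0.13), chosen after their values were seen, stayed under the fold threshold. Of 28 inhibitors of the cell cycle and related genes the only one called was CDKN1C, the inhibitor p57, which rose by 1.35 ± 0.19 (adjusted P = 6.76e-05) from 15.33, 15.16 and 15.09 to 16.55, 16.54 and 16.53. It rose more in siControl cells (2.66), and the difference passed the test (-1.31, adjusted P = 0.00109).

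Genes of cholesterol and fatty acid synthesis fell by about the size of the fold threshold. Of 33 tested members none rose and 14 fell, against 4.15% of all genes (median -0.96), and all 33 were well above background on the 6 arrays. With no fold threshold 29 of the 33 fell and 1 rose, while of all 17037 genes 3983 fell and 3191 rose. FASN, the fatty acid synthase, went from 13.32, 13.20 and 13.31 to 11.94, 12.03 and 11.92 and fell by 1.31 on the log2 scale (adjusted P = 4.7e-09, limma). INSIG1, which holds back the sterol sensing machinery, fell by 1.32 (adjusted P = 4.08e-06) and the fatty acid elongase gene ELOVL6 by 1.43 (adjusted P = 1.25e-06). HSD17B7 (-1.41) and ACAT2 (-1.31), which act late and early in sterol synthesis, fell as well. For FASN and INSIG1 every 96 h array lay below every 48 h array. The list also fell in growth media (9 of 33, against 2.24% of all genes, median -0.72). It had a median of -0.32 in siControl cells, where 2 fell, against 4.34%. By the test of the difference 7 members had a more negative change than in siControl cells, against 10.5% of all genes. The sterol regulatory element TCACNCCAC was found in 1 of 25 promoters of the list (4.0%), against 1.12% of those of tested genes, and CCAAT in 17 of 25 (68.0%).

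ACTG2, the enteric smooth muscle actin, showed the largest rise of any gene that was well above background on all 6 arrays and did not overlap between times. Its log2 signals were 6.18, 6.08 and 6.25 at siZNF148 48 h and 12.06, 11.92 and 12.17 at 96 h, a rise of 5.88 ± 0.16 or 58.9-fold (limma adjusted P = 4.39e-11). It fell in siControl cells (-1.27) and rose in growth media (4.46). Of 20 smooth muscle and SRF target genes 6 rose and none fell, against 4.74% and 4.15% of all genes, with a median change of -0.29. The matricellular protein gene CCN2 rose by 2.58 ± 0.12 (adjusted P = 4.35e-09), calponin CNN1 by 1.96 ± 0.45 (adjusted P = 0.0037, but 0.0555 with the per-gene test of the study's methods) and TAGLN by 1.09 ± 0.15 (adjusted P = 7.88e-05), under 2-fold with 75th percentile scaling. TPM4 rose by 1.30 on 1 probe and by 0.50 on another.

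Of 44 collagens and matrix genes 8 rose and 2 fell (median 0.24), against 4.74% and 4.15% of all genes. TNC, tenascin C, a matrix protein of regenerating tissue, went from 7.51, 7.23 and 7.50 to 9.76, 9.84 and 9.90 (2.42 ± 0.26, limma adjusted P = 7.43e-06) while it fell in siControl cells (-2.10). COL15A1 rose by 2.67 ± 0.22 (adjusted P = 5.36e-07) and COL12A1 by 1.49 ± 0.10 (adjusted P = 1.38e-07). Of 25 matrix proteases and inhibitors 3 rose and 3 fell, against the same shares: the stromelysin gene MMP3 fell by 2.47 (adjusted P = 2.84e-08), while the collagenase gene MMP1 rose by 1.22 ± 0.17 (adjusted P = 6.45e-05). FGF7 rose by 2.00 ± 0.12 (adjusted P = 3.28e-08) and FGF2 by 1.86 ± 0.29 (adjusted P = 0.00019), the latter by less than 2-fold with a normexp correction. The receptor gene FGFR1 fell by 1.27 (adjusted P = 5.25e-07) on 1 probe and was 0.91 lower (-0.91) on another. Of 23 genes of the IGF axis and growth factors 5 rose and 5 fell, against the same shares. Among 28 inhibitors of differentiation, INHBA, a subunit of activin, rose by 2.51 ± 0.10 (adjusted P = 1.57e-09) and DLK1, a Notch pathway protein, by 1.73 ± 0.36 (adjusted P = 0.00174), while SNAI1, a repressor, fell by 1.59 (adjusted P = 0.000256) and rose in siControl cells (3.92).

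Of 29 inflammatory cytokines and chemokines 8 rose and 5 fell, against 4.74% and 4.15% of all genes (median 0.15). CCL5, a chemokine that is also induced by interferon, rose by 3.26 ± 0.58 (limma adjusted P = 0.000514). CCL20, a chemokine of mucosal inflammation, went from 8.58, 8.72 and 8.81 to 5.48, 5.66 and 5.44 and fell by 3.18 on the log2 scale (adjusted P = 5.19e-06), and complement C3 fell by 1.83 (adjusted P = 6.82e-06). CXCL12 rose by 2.95 ± 0.10 on its brightest probe, while 2 others gave -0.26 and 0.81. CXCL1 rose by 2.28 ± 0.44, against 0.30 on another probe.

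Outside the lists, among genes well above background on all 6 arrays, the largest rises were those of PGA3, a pepsinogen gene with near-identical neighbours PGA4 and PGA5 (5.40 ± 0.16, limma adjusted P = 7.16e-11), PRXL2A, a thioredoxin-like protein (3.99 ± 0.21), CD24, a surface glycoprotein of progenitor cells (3.95 ± 0.12), and PLCB2, a phospholipase C (3.78 ± 0.18). The largest falls included GADL1, a decarboxylase of muscle, which fell by 3.86 on the log2 scale (adjusted P = 6.27e-08). GABRR1, a subunit of a GABA receptor, fell by 3.79 (adjusted P = 1.03e-09), the autophagy gene MAP1LC3C fell by 3.49 (adjusted P = 1.09e-10) and TCAF2 fell by 3.37 (adjusted P = 1.18e-08). NPTX1, a pentraxin of synapses, fell by 3.03 (adjusted P = 8.74e-08) and NGFR, the low affinity neurotrophin receptor, by 2.90 (adjusted P = 0.000461). The elastase genes CELA2A and CELA2B, whose probes cannot be told apart with certainty, fell by 3.13 each. GADL1 and NGFR rose in siControl cells (3.46 and 4.18), whereas GABRR1 (0.11) and TCAF2 (0.08) did not pass the test there, with siControl means of 2.04 and 2.15 for GABRR1, below every siZNF148 array.

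The tested difference in the change over time between siZNF148 and siControl cells in DIFF media was passed by 3282 of 17037 genes (19.3%), 1496 with a more positive (8.78%) and 1786 with a more negative change (10.5%) in siZNF148 cells. Between siZNF148 cells in DIFF and in growth media it was passed by 388 genes (2.28%), 103 more positive (0.605%) and 285 more negative (1.67%) in DIFF media. In siControl cells in DIFF media 1862 genes changed over time (10.9%), and in siZNF148 cells in growth media 1174 (6.89%). NPTX1 differed between media by -2.92 (adjusted P = 9.73e-05), since it fell in DIFF media and changed by -0.12 in growth media. MYF5 also fell in DIFF media but not in growth media (0.14), and the difference passed the test (-1.42, adjusted P = 0.0422). In siControl cells MYF5 fell as well (-2.07), and the difference from that change (0.79) was under the fold threshold.

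The labelled cell type was checked against its markers. Muscle markers were present, with median log2 signals of 16.61 ± 0.03 (SD, n = 3) at siZNF148 48 h and 16.95 ± 0.04 at 96 h over 12 genes, of which MYF5 alone changed. None of 4 tested adipocyte markers changed, 1 of 4 immune markers fell near background, and the leukocyte marker PTPRC stood at 6.51, 6.38 and 7.04 against 6.44, 6.82 and 6.63 on its brightest probe, while 2 dimmer PTPRC probes were lower at 96 h (-1.36, adjusted P = 1.44e-05, and -1.22, adjusted P = 0.0229). The monocyte marker CD14 had signals of 6.98, 6.50 and 6.91 at 48 h, then 5.90, 5.97 and 5.98 later (-0.85 ± 0.29), under the fold threshold. Of 7 endothelial markers, CLDN5 fell by 1.25 and TEK rose from background (at least 1.99-fold). Of 7 fibroblast markers, THY1 fell by 1.46, while DCN (-0.60) and FAP (-0.01) did not pass the fold threshold. Of 8 cartilage and bone markers COL10A1 and ALPL rose (1.81 and 1.69), of 6 neural markers MAP2 rose (1.31), and of 3 epithelial markers CDH1 rose from background (at least 1.87-fold). The calls of CLDN5, TEK, ALPL, MAP2 and CDH1 were lost with a normexp correction. That of ITGAM, the immune marker that fell, was lost in 13 of 23 alternatives. Of 15 housekeeping genes B2M alone changed, and RPL13A and RPLP0 differed by -0.02 and -0.09. The part of any such cells in the gene changes was not tested.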

How the data were processed

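RNA of 29 samples was labelled with Cy3 and hybridized to 1-colour Agilent arrays of 62976 spots, 2075 of them controls. The deposited scanner files hold intensity values from Agilent Feature Extraction 10.7.3.1, background-subtracted by the authors per the file headers and not scaled between arrays. The deposited value table holds log2 values that the authors had quantile-normalized, and its columns each matched their own array best and shared a median of 4.28, with their exact centring not given in the sources used here. Control spots and outlier flags were left out, spots of a probe were averaged (58201 probes), and log2 intensities were quantile-normalized over the 29 arrays. No spot of the arrays was saturated. Of the probes, 31104 were named through RefSeq accessions, for 22439 genes. Headers of 14 arrays named build hg19, and coordinates given here are those of RefSeq on GRCh38.p14.

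Groups came from the labels. Group means of 18 arrays (siZNF148 in DIFF media, siControl in DIFF media and siZNF148 in growth media, each at 48 and 96 h) were fitted with limma 3.58.1 in R 4.3.3, over the 33613 probes that were well above background on 3 or more of them, with P values adjusted over all probes by the Benjamini-Hochberg method. A difference between 2 changes over time was a contrast in the same fit. For a probe not well above background on any array of 1 group, a bound was given from the lowest signal well above background on each array. The adjusted P and the call of such a probe are those of its fitted change. On simulated data of 33613 probes for the comparison of siZNF148 cells in DIFF media, 68%, 88%, 98% and 94% of 50 probes each changed by 1.5, 2, 3 and 4 on the log2 scale were recovered, with 6 false calls.

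The members and gene lists were chosen with earlier results of these data known. Genes were named if the study names them, if they were among the 10 largest rises or falls well above background and without overlap, the 5 largest changes of a list, the 8 largest differences of a contrast or the 5 largest bounds, and other named genes are said to be chosen after their values were seen. Alternatives were other normalizations, background corrections, filters, array sets, tests and blocks, and each replicate left out. Some items are not reported here.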

Additional observations from a re-analysis of the deposited data

Results flagged for a closer look

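The change over time differed between siZNF148 and siControl cells in DIFF media for 3282 genes by the limma test of the difference, and between siZNF148 cells in DIFF and growth media for 388 genes. In the first test 34 interferon-stimulated genes had a more positive change, and 47 mitotic and 17 thin filament genes a more negative one, in siZNF148 cells. In the second, 12 interferon-stimulated genes had a more negative change in DIFF media.

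Of single genes, ACTG2 had a difference of 7.15 on the log2 scale between siZNF148 and siControl cells. The differences were -7.32 for GADL1, -7.08 for NGFR, -6.51 for SRL, -6.27 for AIF1L, -6.19 for FOXS1, -6.15 for PVALB and -6.08 for KCNE5. SRL, FOXS1 and PVALB were not well above background on any siControl 48 h array, so their differences have an uncertain size. The AIF1L value is that of its brightest probe, which changed by -0.06 in siZNF148 cells, while 2 other AIF1L probes rose there by 1.33 and 1.24.

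Between DIFF and growth media, PGA3 had a difference of 2.24. The differences were -4.02 for TAC4, -2.92 for NPTX1, -2.40 for DHRS3, -2.35 for TGM2, -2.33 for CMPK2, -2.26 for ANGPTL4 and -2.17 for CHST5. The call of CHST5 was lost when any of several single arrays was left out, with adjusted P up to 0.104. With 3 arrays a group, no array was tested for standing apart from its group.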

How the results depend on the processing

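Counts here are of probes, unless a list is named. With a normexp correction at offset 50, 977 probes (584 higher, 393 lower) changed in siZNF148 cells in DIFF media, against 2753 (1414 and 1339). The counts were 1441 in siControl cells (against 3182), 762 in growth media (2038), 3060 for the difference from siControl (5666) and 227 for that between media (622), and 12 mitotic genes were called (37). With no fold threshold these were 11623, 13031, 9172, 13506 and 2309 probes, and 30 cholesterol and fatty acid genes. Leaving out single replicates gave 2581 to 2858 probes in siZNF148 cells in DIFF media, 2848 to 3584 in siControl cells, 1917 to 2184 in growth media, 5307 to 5941 and 478 to 689 for the differences, and 34 to 39 mitotic, 34 to 34 interferon-stimulated, 16 to 18 antigen presentation and 11 to 14 cholesterol genes. No direction reversed. Of 146 named genes that were called, 86 were called in every alternative that was run, and the causes were not tested.

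Arrays with the same replicate number in the labels did not deviate together (correlations -0.0904, -0.0361 and -0.0379), so the numbers were not taken to pair the samples. A replicate block gave 2730 probes and a slide block 2785. Each ended the call of 1 of the 146 named genes called in siZNF148 cells in DIFF media, and both ended that of CHST5 between media. Of the mitotic genes 31 of 57, and of the class II genes 5 of 11, were well above background on all 6 arrays, and signal over background limits the others.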

Other observations

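Of 60 histone genes 6 rose and 5 fell, against 4.74% and 4.15% of all genes (median 0.18). H1-2, a linker histone, rose by 1.63 ± 0.09 (limma adjusted P = 1.62e-08), and H2AC7 by 1.54 ± 0.09 (adjusted P = 2.97e-08). H1-5 fell by 2.26 on the log2 scale (adjusted P = 1.21e-06), H3C2 by 2.01 (adjusted P = 8.88e-09) and H3C15 by 3.06 (adjusted P = 1.98e-05). These 3 rose in siControl cells (1.59, 1.14 and 2.84). Histone genes are close in sequence, and their probes may share signal.

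Of 77 genes of the respiratory chain none changed (median 0.06), and of 35 glycolytic genes 2 rose and 2 fell, near the same shares of all genes. FBP2, the muscle fructose bisphosphatase, went from 7.29, 7.01 and 6.98 to 9.86, 9.55 and 9.86 (2.66 ± 0.13, adjusted P = 4.98e-09), and ALDOC, a brain-type aldolase, fell by 1.60 (adjusted P = 8.37e-07). PDK4, which turns off pyruvate oxidation, rose by 1.44 ± 0.15 (adjusted P = 4.01e-06), while CD36, which takes up fatty acids, went from 13.13, 13.43 and 13.22 down to 11.85, 11.71 and 11.72 (adjusted P = 5.39e-09). PLIN5, a lipid droplet protein, rose from background by at least 2.80-fold (adjusted P = 2.1e-05). With a normexp correction PLIN5 was not called.

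Several genes crossed the background, and their adjusted P values are those of the fitted change, not of the bound. GALNT6, a glycosyltransferase, was at least 13.4-fold higher at 48 h than at 96 h (adjusted P = 3.02e-05), PHLDB2 at least 7.73-fold (adjusted P = 2.24e-06) and AGXT2, an aminotransferase, at least 7.52-fold (adjusted P = 1.08e-12). GDF6, a growth factor of the BMP family, was at least 6.94-fold higher at 96 h (adjusted P = 2.01e-10), and CFAP92 at least 7.09-fold (adjusted P = 7.88e-07).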
